A study of Mus musculus with 8 samples.

Results

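The *Cyp2d* and *Cyp2j* genes encode 2 families of cytochrome P450 enzymes, and their mRNA was examined in the livers of mice on a high-fructose diet (HFrD) or a normal diet (ND). The members were 9 gene symbols, *Cyp2d9*, *Cyp2d10*, *Cyp2d13*, *Cyp2d22*, *Cyp2d26*, *Cyp2d40*, *Cyp2j5*, *Cyp2j6* and *Cyp2j9*, looked up by name in a table of 22564 genes, all of which it labels protein-coding although some carry pseudogene names. Of these, 8 were found (5 *Cyp2d* and 3 *Cyp2j* genes), and *Cyp2d13* was not analysed here. RNA-Seq had been performed on liver from 4 HFrD mice (numbered 1, 2, 5 and 7) and 4 ND mice (numbered 1, 3, 6 and 7), with 1 library for each mouse. All 8 were male C57BL/6J mice aged 10 to 11 weeks, C57BL/6J being an inbred strain, and each diet was given for 2 weeks. The HFrD drew 10% of its energy from fat, 70% from carbohydrate and 20% from protein, and the composition of the ND is not given in the sources used here. No gene was altered in either group. The values are FPKM, which count sequenced fragments relative to transcript length and to the size of the library.

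Cytochromes P450 are haem enzymes of the endoplasmic reticulum that insert 1 oxygen atom into drugs, steroids and fatty acids, with electrons handed over by the P450 reductase. The mouse *Cyp2d* genes form a cluster of recent duplicates beside the orthologue of a single human drug-metabolising gene, and *Cyp2d9* encodes a testosterone hydroxylase known for higher expression in male than in female mouse liver. The CYP2J enzymes are known for turning arachidonic acid into epoxides, signalling lipids that epoxide hydrolases then open.

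The promoters are shown first because the *Cyp2d* genes lie next to each other and *Cyp2d40*, *Cyp2d9* and *Cyp2d10* share promoter sequence. Promoters from RefSeq (assembly GRCm38.p6) were matched for 7 of the 8 genes, all but *Cyp2d22*. The longest run that all 4 *Cyp2d* promoters share is CTTTATAAGG, which contains a TATA box. It was picked from these promoters because they share it, so its count in 32 of 32851 promoters (0.097%) is a description alone. The *Cyp2j5* promoter holds its first 9 bases. By RefSeq, the shared run ends 82 bases before the start of *Cyp2d40*, 19 before that of *Cyp2d9* and 22 before those of *Cyp2d10* and *Cyp2d26*. By the GENCODE M21 models, it ends 22 bases before the starts of *Cyp2d40* and *Cyp2d10*, but past those of *Cyp2d9* and *Cyp2d26*. The 100 bases that end with this run are given for each gene, with capitals for the run and for the 13 bases that *Cyp2d40*, *Cyp2d9* and *Cyp2d10* hold in common 12 bases before it.
Cyp2d40, chr15:82764205-82764304, minus strand: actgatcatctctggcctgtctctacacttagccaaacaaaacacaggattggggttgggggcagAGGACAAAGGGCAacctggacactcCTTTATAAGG
Cyp2d9, chr15:82452258-82452357, plus strand: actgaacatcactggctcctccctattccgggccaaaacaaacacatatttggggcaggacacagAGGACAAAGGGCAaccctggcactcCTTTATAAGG
Cyp2d10, chr15:82407217-82407316, minus strand: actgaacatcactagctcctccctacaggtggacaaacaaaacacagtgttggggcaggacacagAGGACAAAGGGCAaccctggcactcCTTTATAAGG
Cyp2d26, chr15:82794268-82794367, minus strand: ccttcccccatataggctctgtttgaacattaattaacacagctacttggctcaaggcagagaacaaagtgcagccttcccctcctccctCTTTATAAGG

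The shared 13 bases match AGGNCANAGGNCA, a direct repeat with 1 base between its copies that is called DR1. This pattern was searched for after the promoters had been seen, and 125 of 32851 promoters (0.381%) hold it on either strand. It was found 2 times in the *Cyp2d40* promoter, 1 time each in those of *Cyp2d9* and *Cyp2d10*, and not in those of *Cyp2d26*, *Cyp2j5*, *Cyp2j6* and *Cyp2j9*. Over the aligned bases, the *Cyp2d40* promoter was identical to that of *Cyp2d10* at 153 of 190 bases (80.5%) and to that of *Cyp2d9* at 150 of 187 bases (80.2%). Against *Cyp2d26* the identity was 85 of 135 bases (63.0%), close to that against *Cyp2j5* of the other family (96 of 158 bases, 60.8%). The promoters of *Cyp2d40* and *Cyp2j5* also hold AGGTCA, the core of a nuclear receptor site, which 16.3% of all promoters hold. TATAAA, the letters of the TATA box, was found in the 4 *Cyp2d* promoters and that of *Cyp2j5* (13.6% of all promoters), and TTGCNNAA, a C/EBP pattern, in that of *Cyp2j9* (10.8%). TTCNNNGAA, a STAT5 pattern, was found in 0 of the 7 promoters, against 8.30% of all. Both strands were searched, and a match is a match of letters alone.

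The coding sequences were compared as well. In GENCODE M21 on GRCm38, *Cyp2d9* and *Cyp2d10* were identical at 92.5% of aligned coding bases, and *Cyp2d40* was identical to the other *Cyp2d* genes at 82.4 to 85.0%. Between *Cyp2d* and *Cyp2j* genes the identity was 54.7 to 58.5%. The annotated *Cyp2d40* model has 6 exons and 1017 coding bases, whereas the 4 other *Cyp2d* genes have 9 or 10 exons and 1503 to 1515 coding bases. A run of 486 coding bases of *Cyp2d9* (bases 188 to 673 from the start codon) has no counterpart in that model. A windowed search tested whether reads could be confused between copies. Of the 100-base windows of each transcript, 0% were shared with another gene for *Cyp2d40*, *Cyp2j5*, *Cyp2j6* and *Cyp2j9*, 0.225% for *Cyp2d22*, 0.375% for *Cyp2d26*, 9.86% for *Cyp2d9* and 14.8% for *Cyp2d10*. At 50 bases, the share was 24.1% for *Cyp2d40*, 29.0% for *Cyp2d9*, 40.5% for *Cyp2d10*, 6.14% for *Cyp2d22* and 10.5% for *Cyp2d26*. At 150 bases, the read length that the paper states, it was 1.54% for *Cyp2d9* and 6.40% for *Cyp2d10*. For *Cyp2d40*, *Cyp2d22*, *Cyp2d26* and the *Cyp2j* genes it was then 0%. The values of *Cyp2d9* and *Cyp2d10* can thus depend on how the counting split such reads between them, and those of *Cyp2d40* less so.

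The 8 genes spanned a wide range of levels. In HFrD livers *Cyp2d9* led with 492 ± 42.9 FPKM (SD, n = 4 here and for each mean of this order). It was followed by *Cyp2d26* with 299.7 ± 42.1 FPKM, *Cyp2j5* with 291 ± 7.65 FPKM and *Cyp2d10* with 267 ± 21.2 FPKM, and neighbours among these 3 overlapped between mice. *Cyp2d40* with 92.2 ± 16.1 FPKM, *Cyp2d22* with 41.8 ± 3.82 FPKM, *Cyp2j6* with 27.1 ± 3.12 FPKM and *Cyp2j9* with 3.50 ± 1.06 FPKM came next, without overlap between neighbours. In ND livers *Cyp2d9* also led, with 662 ± 26.4 FPKM. *Cyp2j5* had 345 ± 15.9 FPKM, *Cyp2d26* had 333 ± 42.1 FPKM and *Cyp2d10* had 321 ± 24.7 FPKM, again with overlap between neighbours. *Cyp2d22* and *Cyp2d40* followed with 48.5 ± 4.45 and 40.2 ± 6.06 FPKM, also with overlap, then *Cyp2j6* with 29.5 ± 1.72 FPKM and *Cyp2j9* with 5.84 ± 1.73 FPKM. *Cyp2d40* thus lay above *Cyp2d22* in every HFrD mouse and overlapped with it in ND mice. FPKM are per length, but the deposited length of every gene is the span of its locus and not that of a transcript, so the length behind each FPKM is not known and the order between genes depends on it.

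**Figure D1:**
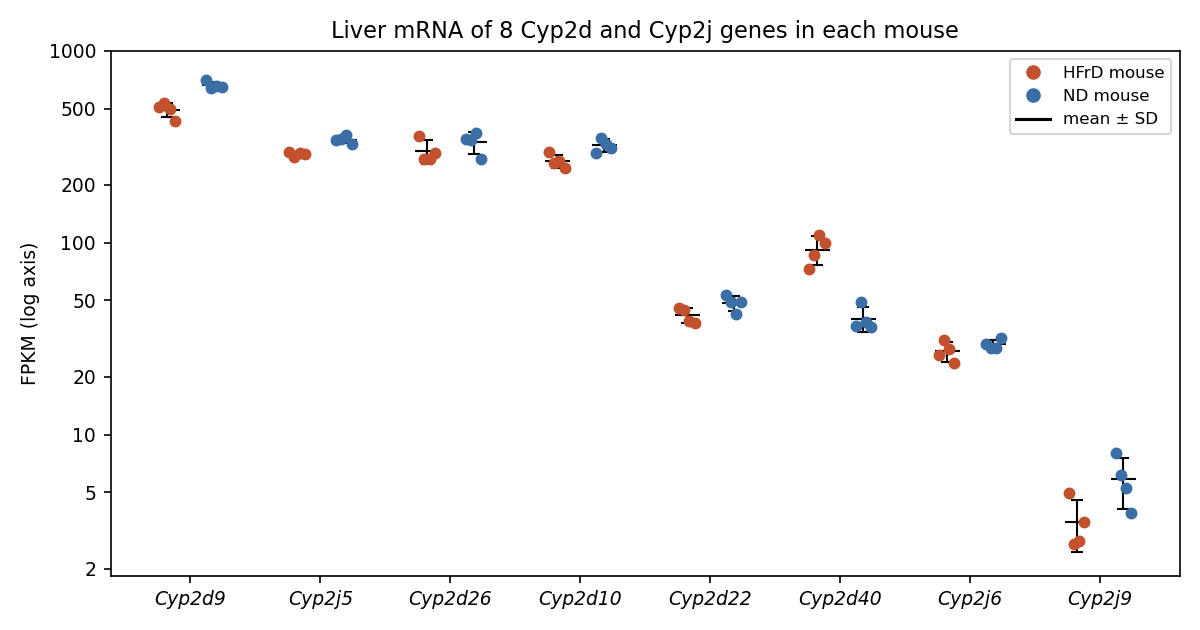
FPKM of the 8 genes in each mouse on a log axis, with HFrD mice in red to the left of ND mice in blue and bars for the mean and SD of 4 mice. *Cyp2d40* is higher in all 4 HFrD mice (72.8 to 110 FPKM) than in the ND mice (36.5 to 49.2 FPKM), while *Cyp2d9* and *Cyp2j5* lie lower in all 4.

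*Cyp2d40* mRNA was higher in HFrD livers. It had 72.8, 86.6, 110 and 99.1 FPKM in HFrD mice 1, 2, 5 and 7, against 36.6, 49.2, 38.4 and 36.5 FPKM in ND mice 1, 3, 6 and 7. The lowest HFrD mouse (mouse 1) was above the highest ND mouse (mouse 3). The mean of 92.2 ± 16.1 FPKM in HFrD livers was 2.29 times the 40.2 ± 6.06 FPKM of ND livers (SD, n = 4 each). The log2 fold change of FPKM + 1, HFrD over ND (log2FC), was 1.17 (SE 0.14, 95% interval 0.86 to 1.48, limma adjusted p = 0.00170). Limma fitted a linear model to each of the 11476 genes whose mean FPKM reached 0.5. Over all 70 divisions of the 8 mice, the two-sided exact permutation p was 0.0286, the smallest such p. A gene counted as changed if its adjusted p (Benjamini-Hochberg over all genes tested) was under 0.05. In GENCODE M21, the gene (ENSMUSG00000068083) lies at chr15:82759833-82764183 on the minus strand.

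*Cyp2d9*, the testosterone hydroxylase gene and the most abundant member, was lower in HFrD livers. It had 506, 533, 498 and 432 FPKM in HFrD mice 1, 2, 5 and 7, against 701, 642, 657 and 649 FPKM in ND mice 1, 3, 6 and 7. All 4 HFrD mice were below all 4 ND mice. The means were 492 ± 42.9 FPKM in HFrD livers against 662 ± 26.4 FPKM in ND livers (SD, n = 4 each), log2FC = -0.43 (SE 0.09, limma adjusted p = 0.0164). The call was lost without ND mouse 1 (adjusted p = 0.0552) and after quantile normalization, where the log2 fold change was -0.26 (adjusted p = 0.115). The deposited locus of *Cyp2d9* is chr15:82452377-82456827 on the plus strand, the only member on that strand. Because *Cyp2d9* and *Cyp2d10* share sequence, they were also summed, although the sum too can depend on how reads were split, since the lengths of the genes differ. The sum was 802, 793, 766 and 676 FPKM in HFrD mice and 994, 994, 985 and 962 FPKM in ND mice, again without overlap.

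The other *Cyp2d* members did not pass the test. *Cyp2d10* had 295, 260, 268 and 245 FPKM in HFrD mice 1, 2, 5 and 7, against 293, 352, 327 and 313 FPKM in ND mice 1, 3, 6 and 7. The groups overlapped through HFrD mouse 1 and ND mouse 1, and log2FC was -0.27 (SE 0.09, limma adjusted p = 0.0915). Without HFrD mouse 1 it was -0.32 (adjusted p = 0.0479). *Cyp2d22*, often described as the nearest mouse counterpart of the human drug-metabolising CYP2D enzyme, had 38.1 to 45.7 FPKM in HFrD livers against 42.6 to 53.4 FPKM in ND livers, log2FC = -0.21 (95% interval -0.43 to 0.01, limma adjusted p = 0.210). *Cyp2d26* had 271 to 361 FPKM in HFrD livers against 273 to 371 FPKM in ND livers, log2FC = -0.15 (95% interval -0.43 to 0.12, limma adjusted p = 0.477). The 95% intervals of *Cyp2d22* and *Cyp2d26* do not include a rise of the size seen for *Cyp2d40*.

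None of the 3 *Cyp2j* genes passed the test, although 2 of them had an unadjusted p under 0.05 in limma. *Cyp2j5*, an arachidonic acid epoxygenase gene of mouse kidney and liver, had 298, 280, 295 and 290 FPKM in HFrD mice 1, 2, 5 and 7, against 342, 345, 365 and 327 FPKM in ND mice 1, 3, 6 and 7. The diets did not overlap, and the means of 291 ± 7.65 FPKM in HFrD livers against 345 ± 15.9 FPKM in ND livers (SD, n = 4 each) gave log2FC = -0.24 (SE 0.07, limma adjusted p = 0.0624). Its coefficient of variation was 2.63% in HFrD livers, the lowest of the 8 members, and 4.62% in ND livers, where that of *Cyp2d9* was lower (3.98%). The adjusted p was 0.0352 with the library medians set equal and 0.0438 with array weights. *Cyp2j9*, known as an arachidonic acid hydroxylase gene of mouse brain, had 4.995, 2.70, 2.80 and 3.52 FPKM in HFrD mice 1, 2, 5 and 7, against 8.02, 6.17, 5.29 and 3.89 FPKM in ND mice 1, 3, 6 and 7. The groups overlapped only through HFrD mouse 1 and ND mouse 7, and log2FC was -0.60 (SE 0.21, limma adjusted p = 0.103). The adjusted p was 0.0437 without HFrD mouse 1, 0.0488 without ND mouse 7 and 0.0498 with array weights. Adding 1 to values this low draws log2FC toward 0, and *Cyp2j9* was the most variable member, with a coefficient of variation of 30.2% in HFrD and 29.6% in ND livers. *Cyp2j6* had 23.6 to 31.0 FPKM in HFrD livers against 28.2 to 31.9 FPKM in ND livers, log2FC = -0.12 (95% interval -0.34 to 0.09, limma adjusted p = 0.469).

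**Figure D2:**
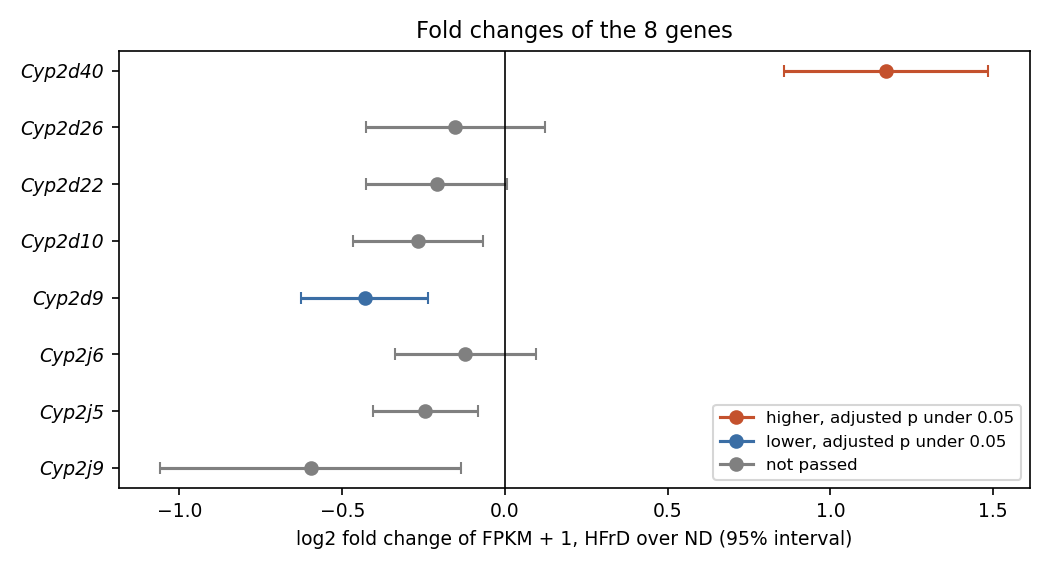
Log2 fold change of FPKM + 1, HFrD over ND, for the 8 genes, with 95% intervals from limma. *Cyp2d40* (1.17) is the one value right of 0, *Cyp2d9* (-0.43) is the one called lower, and the 6 in grey did not pass the test.

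In all, 1 of the 8 genes was higher, 1 was lower and 6 did not pass. Over all 11476 genes tested, 1047 (9.12%) were called, 624 higher (5.44%) and 423 lower (3.69%), so the 2 of 8 members stand beside 9.12% of all genes and rest on few genes. The median log2 fold change was -0.23 over the 8 genes and 0.01 over all genes tested. With the library medians set equal, 552 of all genes were called higher and 614 lower. The values of the diets did not overlap for 3 of the 8 genes (*Cyp2d40*, *Cyp2d9* and *Cyp2j5*), against 16.6% of all genes tested, and 2 of them lay lower in all 4 HFrD mice, as did 7.01% of all genes. The fit without HFrD mouse 1 called 4 members (*Cyp2d40*, *Cyp2d9*, *Cyp2d10* and *Cyp2j9*) and the fit without ND mouse 1 called *Cyp2d40* alone.

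*Cyp2d40* was then compared with each other gene inside the same mouse. Relative to *Cyp2d9*, its FPKM was 0.144 to 0.230 in HFrD mice and 0.0522 to 0.0766 in ND mice. Relative to *Cyp2d10*, it was 0.247 to 0.411 in HFrD mice and 0.117 to 0.140 in ND mice. Thus *Cyp2d40* stayed below both in every mouse, but by less on the HFrD. Relative to *Cyp2d22*, it was 1.59 to 2.82 in HFrD mice and 0.686 to 1.00 in ND mice. Relative to *Cyp2d26*, it was 0.202 to 0.404 in HFrD mice and 0.104 to 0.144 in ND mice. The diets did not overlap for any of the 7 ratios, those to the *Cyp2j* genes included. The log2 ratio to *Cyp2d9* was higher by 1.60 in the HFrD mice (SE 0.20), that to *Cyp2d10* 1.44 higher (SE 0.18), that to *Cyp2d22* 1.38 higher (SE 0.22) and that to *Cyp2d26* 1.32 higher (SE 0.24). For *Cyp2j5*, *Cyp2j6* and *Cyp2j9* the differences were 1.42 (SE 0.16), 1.29 (SE 0.20) and 1.77 (SE 0.33). Each of the 7 pairs had p = 0.0286 in the exact two-sided permutation test, the smallest it can give, and 0.0286 after adjustment over the 7 pairs. All 7 ratios contain the same *Cyp2d40* values, so they are not 7 independent results. The ratios to *Cyp2d26* and *Cyp2j9* did not reach the 0.05 threshold when single ND mice were left out (exact p = 0.0571, for *Cyp2d26* without ND mouse 1, 6 or 7 and for *Cyp2j9* without ND mouse 1), with the same direction. The diets still did not overlap there, and with fewer mice this test has fewer divisions and coarser steps of p.

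**Figure D3:**
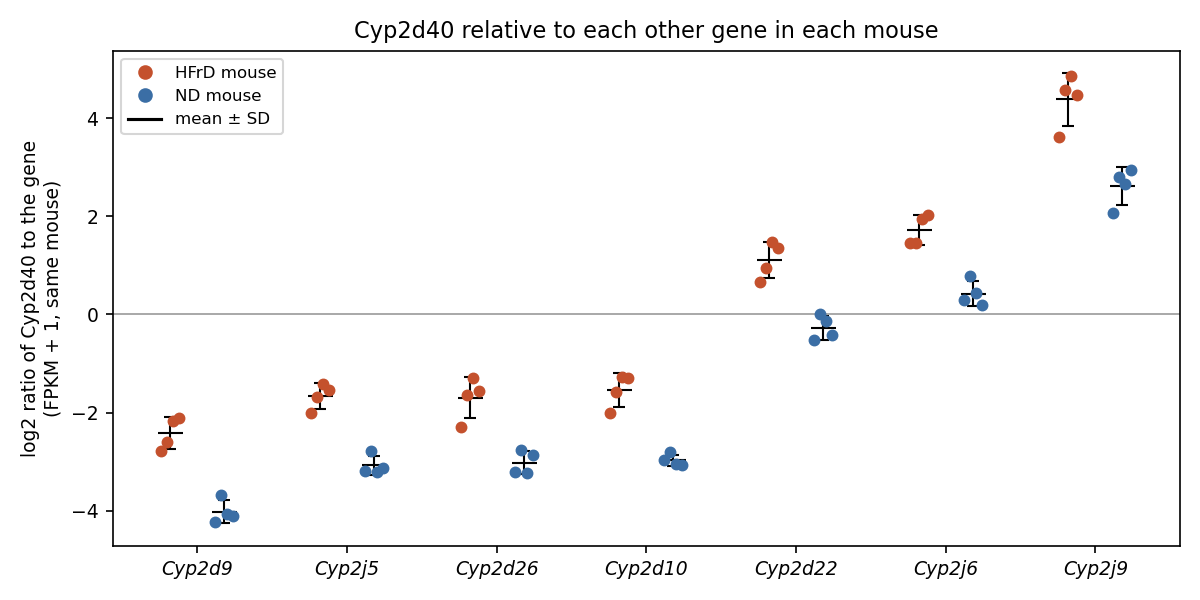
Log2 ratio of *Cyp2d40* to each other gene (FPKM + 1, same mouse), with HFrD mice in red to the left of ND mice in blue and bars for the mean and SD of 4 mice. For each of the 7 genes, all 4 HFrD mice lie above all 4 ND mice, and the shift is 1.29 to 1.77.

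The genes were placed along their clusters. The *Cyp2d* genes of the table run from *Cyp2d22* to *Cyp2d26* on chromosome 15, and *Cyp2d40* lies between *Cyp2d37-ps* and *Cyp2d26*. *Cyp2d37-ps*, a pseudogene by its name, had 19.2 to 25.2 FPKM in HFrD livers against 25.7 to 29.3 FPKM in ND livers, without overlap, and log2FC = -0.32 (limma adjusted p = 0.0799). *Cyp2d12* averaged 0.465 ± 0.136 FPKM in HFrD livers against 0.679 ± 0.455 FPKM in ND livers (SD, n = 4 each), with log2FC = -0.16 (limma adjusted p = 0.630), and *Cyp2d11* had 0.279 ± 0.142 FPKM in HFrD livers against 0.546 ± 0.374 FPKM in ND livers (SD, n = 4 each), which was under the filter. These are genes of low level. The expressed genes on either side of *Cyp2d40*, *Cyp2d37-ps* and *Cyp2d26*, thus had a log2FC below 0, and neither passed the test. *Cyp2d34* was listed at 0 in every library, as were *Cyp2j7-ps*, *Cyp2j11*, *Cyp2j12* and *Cyp2j13*. *Cyp2j8* was at 0.109 ± 0.0896 FPKM in HFrD livers against 0.115 ± 0.134 FPKM in ND livers (SD, n = 4 each). The 3 expressed *Cyp2j* genes are the last 3 of the 8 *Cyp2j* genes of the table in chromosomal order on chromosome 4.

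**Figure D4:**
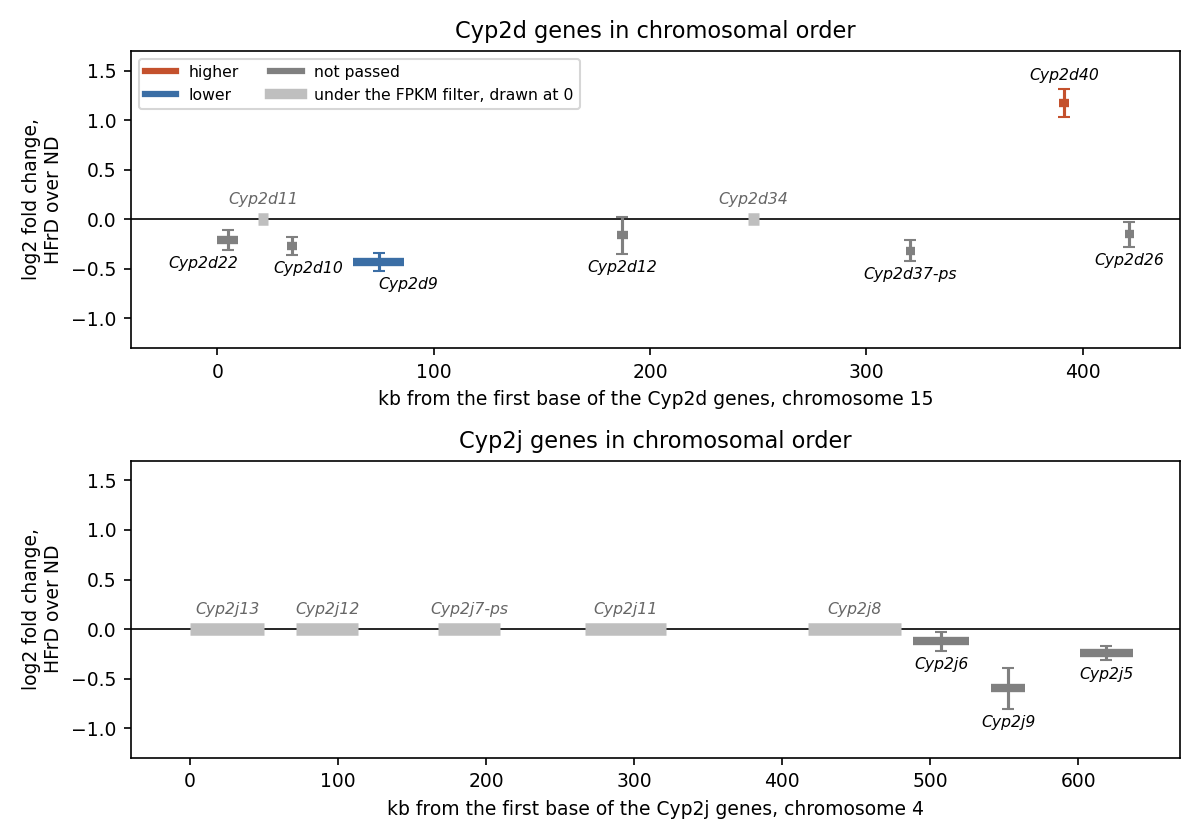
Log2 fold change, HFrD over ND, of the *Cyp2d* genes (top) and *Cyp2j* genes (bottom) at their place in kb from the first base of each group of genes, with bars for the standard error and the thick line for the gene's extent. *Cyp2d40* at 389.3 kb (1.17) stands between *Cyp2d37-ps* (-0.32) and *Cyp2d26* (-0.15), and pale genes were under the FPKM filter and are drawn at 0.

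Protein-coding genes that start within 100 kb outside the clusters were compared as well. Before the *Cyp2d* genes, *Smdt1*, a regulatory subunit gene of the mitochondrial calcium uniporter, was higher, with 61.2 ± 6.70 FPKM in HFrD livers against 39.7 ± 2.67 FPKM in ND livers (SD, n = 4 each) and log2FC = 0.61 (limma adjusted p = 0.00620). Its deposited locus is shared with *Fam109b*, which was under the filter. *Ndufa6*, a complex I subunit gene, had log2FC = 0.41 (limma adjusted p = 0.0629). *Sept3* and *Wbp2nl* were under the filter. These neighbours lie on the side of *Cyp2d22*, whereas *Cyp2d40* is near the other end. Before the *Cyp2j* genes, *Hook1*, a microtubule-binding protein gene, had log2FC = -0.35 (limma adjusted p = 0.0905).

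Summed FPKM showed how much the *Cyp2d* output as a whole differed. The 5 *Cyp2d* members summed to 1281, 1195, 1188 and 1107 FPKM in HFrD mice 1, 2, 5 and 7, against 1431, 1434, 1437 and 1321 FPKM in ND mice 1, 3, 6 and 7. All 4 HFrD sums were below all 4 ND sums, and the rise of *Cyp2d40* by 52.0 FPKM was smaller than the drop of *Cyp2d9*, which fell by 170 FPKM. *Cyp2d40* made up 7.79 ± 1.66% of the sum in HFrD and 2.86 ± 0.391% in ND livers (SD, n = 4 each). *Cyp2d9* made up 41.3 ± 2.56% in HFrD and 47.2 ± 2.23% in ND livers. The 3 *Cyp2j* members summed to 329, 314, 326 and 317 FPKM in HFrD mice and to 380, 380, 399 and 363 FPKM in ND mice, without overlap. As a share of all FPKM, the *Cyp2d* members took 0.248 ± 0.0160% in HFrD and 0.282 ± 0.00743% in ND livers, and the *Cyp2j* members 0.0668 ± 0.00163% in HFrD and 0.0763 ± 0.00202% in ND livers (SD, n = 4 each). Of the FPKM of all 96 genes named *Cyp*, the members took 19.4 ± 2.50% in HFrD and 12.8 ± 0.754% in ND livers. All *Cyp* genes together summed to 6902 to 10038 FPKM in HFrD livers and 12115 to 14906 FPKM in ND livers. The *Mup* genes, which encode abundant urinary proteins, took 6.73 to 9.78% of all FPKM in the HFrD libraries and 11.98 to 15.2% in the ND libraries.

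**Figure D5:**
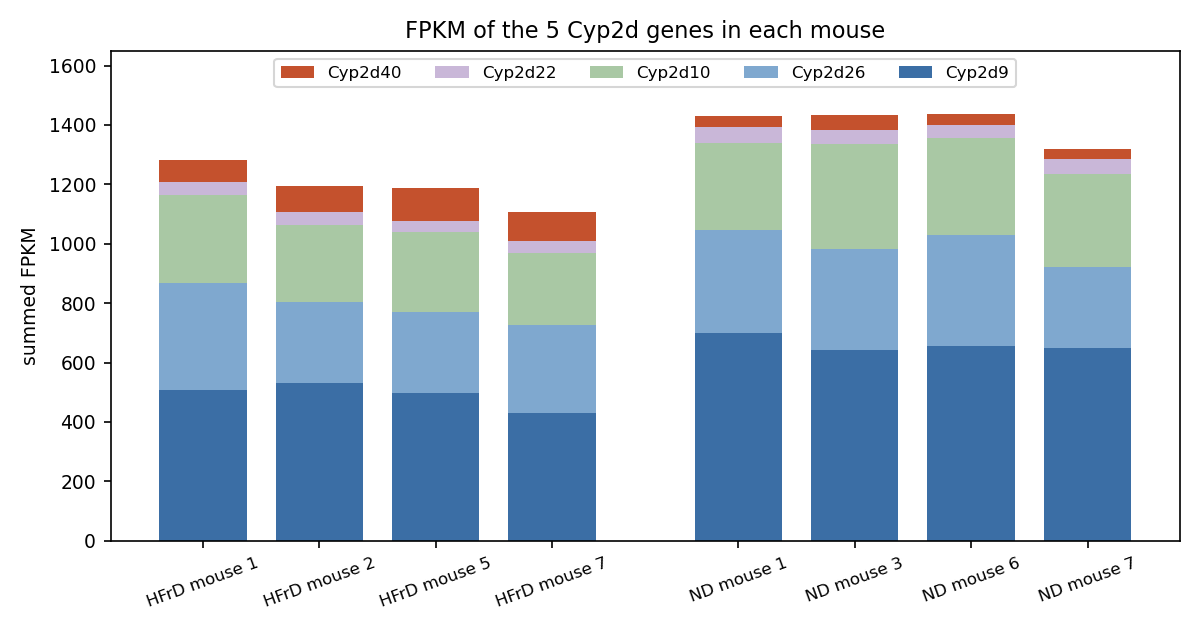
FPKM of the 5 *Cyp2d* genes stacked for each mouse, with HFrD mice on the left and ND mice on the right. The sums reach 1107 to 1281 FPKM in HFrD and 1321 to 1437 FPKM in ND mice, while the *Cyp2d40* part at the top is larger in every HFrD mouse.

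Among genes that serve P450 enzymes, 3 of 15 tested were higher and 2 lower, against 5.44% and 3.69% of all genes tested. *Por*, the reductase that passes electrons to the CYP2D and CYP2J enzymes and chosen for mention after its values were seen, had 111, 57.3, 52.4 and 97.7 FPKM in HFrD mice 1, 2, 5 and 7, against 183, 185, 155 and 119 FPKM in ND mice 1, 3, 6 and 7. Its log2FC was -1.05 (SE 0.24, limma adjusted p = 0.0261), and 5 of the 8 fits without 1 mouse, those without HFrD mouse 2 or 5 or ND mouse 1, 3 or 6, did not pass (adjusted p 0.0592 to 0.0766). *Pgrmc1*, a haem-binding partner of P450 enzymes, was also lower (log2FC -0.67, limma adjusted p = 0.00895). *Cyb5r3*, the cytochrome b5 reductase, was higher (0.99, adjusted p = 0.00696), as was *Pgrmc2* (0.76, limma adjusted p = 0.0168). *Alas1*, the first enzyme of haem synthesis, had a log2 fold change of -0.75 (SE 0.31) and did not pass (limma adjusted p = 0.157).

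Among 18 nuclear receptors and factors known to act on P450 genes, 1 was called, as higher, against 9.12% of all genes called in either direction. *Hnf4a*, a hepatocyte nuclear receptor known to bind DR1 sites, had 119 ± 4.70 FPKM in HFrD livers against 124 ± 8.57 FPKM in ND livers (SD, n = 4 each), with log2FC = -0.06 (limma adjusted p = 0.662). *Cebpa*, a leucine zipper factor of hepatocytes, had 0.03 (limma adjusted p = 0.917). The other 17 genes of this list did not pass, and at an unadjusted p under 0.05 in limma the list had 2 genes with a positive and 4 with a negative log2FC.

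A list of arachidonic acid metabolism holds epoxygenases and epoxide hydrolases but also omega-hydroxylases, phospholipases and prostaglandin enzymes. Of its 20 genes tested, 2 were higher and 10 lower (5.44% and 3.69% of all genes tested), with a median log2 fold change of -0.39. The higher ones were *Cyp2c38* (log2FC 0.83) and *Cyp2c39* (0.57), and the lower ones include the hydroxylases *Cyp4f13* and *Cyp4a12a*, all 4 named after their values were seen. *Cyp2c37* (-1.79, adjusted p = 0.00143), *Cyp2c50* (-1.51, adjusted p = 0.00118) and *Cyp2c29* (-0.61, limma adjusted p = 0.0233) were lower, as was *Ephx1*, an epoxide hydrolase gene (-0.87, limma adjusted p = 0.00285). The *Cyp2c* genes called on this list thus went in both directions. The *Cyp2c29* call was lost in 8 of 17 alternatives, among them quantile normalization (adjusted p = 0.0708) and the fits without HFrD mouse 2 or 7 or ND mouse 1, 3 or 6 (limma adjusted p 0.0552 to 0.0645). The 3 *Cyp2j* genes had a log2FC nearer to 0 than *Cyp2c37* and *Cyp2c50*. Sequence shared among the *Cyp2c* genes was not measured here, so how far reads could be confused between them is not known. Among all genes named *Cyp2*, 3 of 32 tested were higher and 14 lower, and *Cyp2d40* was thus 1 of 3 that were higher.

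As *Cyp2d9* is male-biased in mouse liver, male-biased genes were counted, in a list written with earlier results of these data known. Of 23 tested, 14 were called, each of them lower (median log2 fold change -0.78), against 3.69% of all genes tested. Among these were *Cyp7b1*, an oxysterol hydroxylase gene (-2.03, adjusted p = 7.72e-04), *Ugt2b38* (-1.44, adjusted p = 0.00118) and *Ugt2b1* (-1.15, limma adjusted p = 0.00166), both genes of glucuronosyltransferases. *Mup7* (-0.96, adjusted p = 0.0118) and *Serpina1e* (-1.07, limma adjusted p = 0.0134), a protease inhibitor gene, were the most abundant of this list and also lower. With quantile normalization *Mup7* had a log2 fold change of -0.60 and did not pass (limma adjusted p = 0.103), nor did it with no filter (adjusted p = 0.0699). Of 10 female-biased genes tested, 2 were higher and 1 lower, against 5.44% and 3.69% of all genes tested. In the path of growth hormone to STAT5, which sets this sex bias in mice, 1 of 9 genes tested was lower, the receptor gene *Ghr* (log2FC -0.40, limma adjusted p = 0.0145), and *Igf1* had -0.22 (limma adjusted p = 0.370). *Cyp2d9* (-0.43) thus changed by less than the median of the male-biased list.

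The 5 genes most like *Cyp2d40* across the 8 mice, by Pearson correlation of log2(FPKM + 1) among genes tested, were *Cotl1* (r = 0.993), *Fbp1* (r = 0.988), *Vat1* (r = 0.987), *Fabp5* (r = 0.980) and *Tpm4* (r = 0.978). These 5 were higher in HFrD livers, and the correlation holds the difference between the diets. *Fbp1*, the fructose bisphosphatase of gluconeogenesis, had 446, 502, 601 and 552 FPKM in HFrD mice 1, 2, 5 and 7, against 311, 318, 298 and 295 FPKM in ND mice 1, 3, 6 and 7. As for *Cyp2d40*, HFrD mouse 1 was the lowest and HFrD mouse 5 the highest of the HFrD mice, and ND mouse 3 was the highest of the ND mice. *Fbp1* was picked for its correlation over these same mice, so a like order follows from the choice and is a description alone. *Cotl1* and *Vat1* were also highest in HFrD mouse 5, but *Fabp5* and *Tpm4* in HFrD mouse 7.

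The mice did not rank alike for all members. HFrD mouse 1 was the highest of the 4 HFrD mice in 5 of 8 genes (*Cyp2d10*, *Cyp2d22*, *Cyp2d26*, *Cyp2j5* and *Cyp2j9*) and the lowest in *Cyp2d40*. HFrD mouse 7 was the lowest in 4 of 8 genes. ND mouse 7 was the lowest of the ND mice in *Cyp2d26*, *Cyp2d40*, *Cyp2j5* and *Cyp2j9*. When HFrD mouse 1 and ND mouse 7 were both left out, a fit chosen after seeing the data, the log2 fold change of *Cyp2d40* was 1.24 and 4 members were called, *Cyp2d40* as higher and *Cyp2d9*, *Cyp2d26* and *Cyp2j9* as lower. *Cyp2d26* then had an adjusted p of 0.0366 and *Cyp2j9* of 0.0143 from limma.

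Markers of hepatocytes were abundant in all libraries (11 of 12 listed genes measured, summing to 54904 to 63838 FPKM in HFrD and 48287 to 58995 FPKM in ND), and 1 of 11 was higher. Markers of Kupffer cells and macrophages summed to 195 to 283 FPKM in HFrD and 93.6 to 149 FPKM in ND libraries. Of these markers, 9 of 11 were higher, against 5.44% of all genes tested. Of the sinusoidal endothelial markers 3 of 10 were higher, of the stellate cell and fibroblast markers 1 of 11, and of the cholangiocyte markers 0 of 5. At an unadjusted p under 0.05 in limma, 7 endothelial, 6 stellate cell and fibroblast and 0 cholangiocyte markers were higher, and 0 of these were lower. At that threshold stood 2925 of all 11476 genes tested, in either direction. In exocrine pancreas and gut, 9 of 14 markers were listed at 0 in every library. The part of the macrophage markers in the values of *Cyp2d9* and *Cyp2d40* was not tested, and in whole liver fewer cells of a type and less RNA per cell cannot be told apart. Estimated from the ratios of low FPKM values, sequencing depth was 1.13 to 1.49 times that of ND mouse 1 in the HFrD libraries and 0.991 to 1.17 times in the ND libraries. The absolute depth is not known, so no counting error can be given for a single value.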

How the data were processed

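Liver RNA-Seq of 4 HFrD and 4 ND mice was analysed from the FPKM values deposited by the authors, 1 column for each mouse. Per the labels and the paper, ribosomal RNA was removed, reads were trimmed with Cutadapt 1.9.3 and aligned to mm10 with HISAT2 2.0.4, and Cufflinks and Cuffdiff were used. Their versions, the annotation and the strand setting are not given in the sources used here, and the labels and the paper name different library kits. The deposited FPKM are scaled to each library. Members were matched by symbol. From FPKM, log2(FPKM + 1) was tested with limma 3.58.1 in R 4.3.3 (eBayes with trend) on genes whose mean FPKM reached 0.5, and the procedure was checked on simulated data. Single values were tested by exact permutation. Promoters came from RefSeq, gene models from GENCODE M21. Sequence and plots used Python 3.11.15, Biopython 1.88, pandas 2.3.3, numpy 2.4.6 and matplotlib 3.10.9. Named were all members, other genes of both families, neighbours within 100 kb, the 5 genes most like *Cyp2d40*, and from each pathway list the 3 called genes of smallest adjusted p and the 2 of highest mean FPKM, with lists of female-biased genes and cell markers given as counts. Some genes named by this rule are not reported here. The members and lists were chosen with earlier results of these data known. P values set the difference between the diets against the spread between mice. Also tried were array weights, a replicate block, no trend, equal medians or quantiles, 0.1 as pseudocount, a mean FPKM of 1 or no minimum, a sum without *Mup* and mitochondrial genes, and each mouse left out. A protein comparison was not run.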

Additional observations from a re-analysis of the deposited data

Results flagged for a closer look

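In 110 groups of 4 mice (55 measures in each diet), 6 held a mouse whose gap to the nearest other mouse exceeded Dixon's 95% critical share of the group's range, as chance gives in about 1 of 20 groups. *Cyp2d40* was high in ND mouse 3 (49.2 FPKM, with 38.4 FPKM in the next). The sum of the 5 *Cyp2d* members was low in ND mouse 7 (1321 FPKM), with or without *Cyp2d40* (1284 FPKM without it). *Cyp2c37* was also low in ND mouse 7 (154 FPKM), *Pgrmc2* was high in ND mouse 1 (16.9 FPKM) and *Mup7* was low in HFrD mouse 2 (5534 FPKM).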

How the results depend on the processing

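*Cyp2d40* was called higher in 16 of 17 alternatives (log2 fold change 1.08 to 1.28) and *Cyp2d9* lower in 14 of 17 (-0.53 to -0.26). Of the 8 members, 1 was called with quantile normalization, 4 with array weights, 4 without HFrD mouse 1 and ND mouse 7, and 1 to 4 when each mouse was left out. Over all genes, 539 to 1293 were called when each mouse was left out. Only numbers 1 and 7 occur in both diets. The deviations of same-numbered mice from their diet means had r = 0.0774 and -0.0137, against -0.145 to 0.107 for mice of unlike number. So few pairs cannot show whether mice of the same number shared anything else, and the sources used here do not say what the numbers mark. The replicate block fits a term for each mouse number, so its diet difference rests on mice 1 and 7 of each diet alone. Very little is then left to estimate the spread, so this fit cannot decide whether a call holds. With this block, limma called 2 of all genes and 0 members (2 members and 1737 genes at an unadjusted p under 0.05). *Cyp2d40* had a log2 fold change of 1.19 there, with a limma adjusted p of 0.133. The log2 fold changes of *Cyp2d26* (0.0817), *Cyp2d12* (0.0406) and *Hnf4a* (0.0292) changed sign. Without 1 mouse, *Cebpa*, which did not pass, ranged over -0.0620 to 0.125. Without *Mup* and mitochondrial genes in the sum, the share of the *Cyp2d* members differed by -0.0590 percentage points in place of -0.0341, and that of the *Cyp2j* members by -0.0163 in place of -0.00952. The causes were not tested.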
